A study of Homo sapiens with 65 samples.

Results

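SOX17, HHEX, FOXA1, FOXA2, FOXA3 and HNF4A, which encode transcription factors of the endoderm, were followed through 65 RNA-seq libraries of human heart organoids. They are 6 of the 58735 gene IDs in the deposited count table and were chosen by name, as factors that mark endoderm, a germ layer that a heart protocol does not aim to make. The organoids are left-ventricular cardioids, self-organising aggregates grown from WTC-11, an induced pluripotent stem cell line, and 8 cardioids were pooled for each library. Per the labels, cells were induced toward mesoderm in a medium with FGF2, the PI3K inhibitor LY294002, Activin A, BMP4 and CHIR99021, reseeded as aggregates at day 1.5, and then kept in media with BMP4, FGF2, insulin, the Wnt secretion inhibitor C59 and retinoic acid.

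Endoderm gives rise to the lining of the gut and to liver, pancreas and lung, and it forms from the same primitive streak cells as heart mesoderm, with strong Nodal or Activin signalling favouring endoderm. SOX17 is an early factor of definitive endoderm. FOXA1, FOXA2 and FOXA3 are pioneer factors that open chromatin in endoderm and later in liver. HHEX marks anterior endoderm and the liver bud, and HNF4A drives the later hepatocyte and gut programme. Several of them also act elsewhere: SOX17 and HHEX in endothelium, and FOXA2 in node and notochord.

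The libraries form 16 groups in 2 arms. In the genotype arm (41 libraries), wild-type lines (WT) stood against clones labelled HAS2-KO (KO) at day 1.5 (5 WT and 6 KO), day 2.5 (6 and 6), day 4.5 (6 and 6) and day 7.5 (3 and 3). HAS2 encodes a synthase of hyaluronan, a sugar polymer of the extracellular matrix. WT libraries came from lines labelled TNT2, WT, WT_TU and cl43_WT_UT. KO libraries came from clones cl4, cl14, cl46 and cl51, of which cl4 supplied 3 of the 6 KO libraries at days 1.5, 2.5 and 4.5. In the enzyme arm (24 libraries, 3 per group), untreated cardioids stood against cardioids that received hyaluronidase, which digests hyaluronan, with the enzyme starting at day 1.5 (HAse1.5) or at day 2.5 (HAse2.5). They were collected at days 2.5, 4.5 and 7.5, with HAse2.5 at days 4.5 and 7.5 alone, and the same 3 lines, labelled TNNI1, WT and TNNT2, supplied every group. Which part of HAS2 was edited is not given in the sources used here, and its 3′ reads were present in every KO library. Their means were 165 ± 71.0 CPM in KO (SD, n = 6) and 197 ± 91.6 in WT (n = 5) at day 1.5, and 582 ± 174 and 657 ± 192 at day 2.5 (n = 6 each). They were 351 ± 74.5 and 339 ± 133 CPM at day 4.5 (n = 6 each) and 315 ± 56.3 and 271 ± 88.5 at day 7.5 (n = 3 each), and the ranges of KO and WT overlapped at each day.

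Library totals ranged from 831062 to 3574843 counts, with a median of 1570954. Levels are given in CPM, a gene's count divided by its library's total and scaled to the same total in every library. Markers of heart muscle were present as the label says: summed over 12 cardiomyocyte genes, WT libraries held 138 to 403 CPM at day 1.5 and 56818 to 67658 CPM at day 7.5. The genotype libraries were numbered in 3 separate runs of numbers, which are treated as blocks: block A (R1 of WT, WT_TU and cl4), block B (R2 of the same lines) and block C (everything else). The labels speak of biological replicates and do not say how they were separated, so p-values measure the spread between these libraries, part of which may be technical.

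SOX17, HHEX, FOXA2 and FOXA3 passed the filter on low counts in both arms and were tested with all other genes. FOXA1 and HNF4A fell below it in both arms and are described from their counts. On GRCh38 (GENCODE v29), HHEX lies on chromosome 10 (92689951 to 92695646, plus strand), FOXA1 on chromosome 14 (37589984 to 37596059, minus strand) and FOXA3 on chromosome 19 (45863989 to 45873797, plus strand). FOXA2 (22581005 to 22585455, minus strand) and HNF4A (44355700 to 44434596, plus strand) are both on chromosome 20. SOX17, HHEX and FOXA3 overlap no other annotated gene. FOXA2 shares 3257 bases with a protein-coding model on the same strand that has 0 counts in all 65 libraries. Whether reads matching both models were dropped is not given in the sources used here, so the level of FOXA2 may be an undercount in every library. FOXA1 shares 213 bases with TTC6 on the opposite strand (46 counts in the 65 libraries), and HNF4A overlaps 3 non-coding models with 0 counts.

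HHEX is the member whose KO and WT libraries did not overlap in unscaled CPM at day 4.5, and the sequence before its first annotated transcript is shown for that reason (RefSeq promoter table, GRCh38.p14, chr10:92689705-92689950, plus strand, 246 bases, 5′ to 3′). Capitals mark GC boxes (GGGCGG or CCGCCC) and a CCAAT box (CCAAT or ATTGG).
HHEX promoter: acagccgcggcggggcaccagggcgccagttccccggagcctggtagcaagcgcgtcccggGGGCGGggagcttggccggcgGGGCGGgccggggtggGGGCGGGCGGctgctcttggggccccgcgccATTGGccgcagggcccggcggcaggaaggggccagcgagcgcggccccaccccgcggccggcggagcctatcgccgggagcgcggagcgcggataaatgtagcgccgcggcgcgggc
The window is 81.3% G or C, against a median of 58.1% over the 35116 promoters of the table cut to the same length, and 97.8% of them have less. It holds 4 GC boxes, of which 2 overlap, and 1 CCAAT box. A GC box occurs in 42.2% of all those promoters and a CCAAT box in 31.8%. Searched on both strands, the forkhead motif TGTTTAC, which 2.93% of promoters hold, the SOX motif AACAAT (8.91%), the GATA motif AGATAA (9.07%) and the TATA box TATAAA (10.7%) had no match in these letters. None of these matches or misses says whether a factor binds there.

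In WT cardioids the 4 tested members followed different courses. SOX17 was at its highest at day 1.5 and was close to 0 from day 4.5, FOXA2 rose after aggregation, FOXA3 fell between days 2.5 and 4.5, and HHEX fell and then rose again. Fold changes are given on the log2 scale with their standard error (SE), from edgeR's quasi-likelihood test with Benjamini-Hochberg adjustment over all genes tested. A member is said to rise or fall where the adjusted p was under 0.05. In these pooled samples, a change in the number of cells of a type and a change in RNA per cell cannot be told apart.

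SOX17 in WT libraries at day 1.5 had 75.5 CPM in WT_R1, 106 in WT_TU_R1, 35.5 in WT_R2, 0.513 in cl43_WT_UT and 17.6 in TNT2. The lines of 1 genotype thus spanned from 1 count to 351 counts, and the R1 libraries of block A were the highest. At day 2.5 the 6 WT libraries ranged from 1.02 to 30.2 CPM (median 13.4), again with cl43_WT_UT lowest and WT_TU_R1 highest. The groups overlapped, and SOX17 fell by 1.96 (SE 0.71, adjusted p = 0.0317). This call was lost in 8 of 16 alternative fits: with DESeq2, with no filter on low counts, with only the libraries compared, without WT_R1 or WT_TU_R1 of day 1.5, and without TNT2, WT_R2 or cl43_WT_UT of day 2.5 (adjusted p from 0.0592 to 0.161). By day 4.5 the range was 0 to 3.96 CPM (median 1.36), a further fall by 3.07 (SE 0.88, adjusted p = 0.00556), and at day 7.5 all 3 WT libraries had 0 counts.

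HHEX in WT at day 1.5 had 13.4 CPM in WT_R1, 27.4 in WT_TU_R1, 17.2 in WT_R2, 12.8 in cl43_WT_UT and 31.5 in TNT2. At day 2.5 the range was 0 to 8.95 CPM (median 4.58). Every WT library of day 2.5 lay below every WT library of day 1.5, as for 5.44% of all genes, and HHEX fell by 2.40 (SE 0.44, adjusted p = 4.42e-05). At day 4.5 the libraries ranged from 5.27 to 27.0 CPM (median 10.9). The ranges of days 2.5 and 4.5 overlapped, and HHEX rose by 1.71 (SE 0.43, adjusted p = 0.00174). At day 7.5 it had 4.11 CPM in WT_R1, 2.79 in WT_R2 and 8.41 in WT_TU_R2, with an adjusted p of 0.196 for the step from day 4.5.

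FOXA2 counts at day 1.5 were 0 in WT_TU_R1 and cl43_WT_UT, 1 in TNT2, 8 in WT_R1 and 10 in WT_R2. At day 2.5 the WT range was 1.02 to 24.4 CPM (median 9.69), with the 2 WT_TU libraries at 24.4 and 20.2 CPM and cl43_WT_UT lowest. The groups overlapped through cl43_WT_UT, and FOXA2 rose by 2.70 (SE 0.80, adjusted p = 0.00873). At day 4.5 it ranged from 0 to 11.5 CPM (median 3.79), and at day 7.5 it had 2.05 CPM in WT_R1, 2.09 in WT_R2 and 3.88 in WT_TU_R2. Neither later step passed the test (adjusted p = 0.167 and 0.779).

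FOXA3 in WT had 5.87 CPM in WT_R1, 4.21 in WT_TU_R1, 10.4 in WT_R2, 22.0 in cl43_WT_UT and 18.1 in TNT2 at day 1.5. Its order of lines was the reverse of that of SOX17, with the R1 libraries of block A lowest. It ranged from 6.48 to 22.3 CPM (median 11.0) at day 2.5 and from 0.659 to 8.09 CPM (median 2.23) at day 4.5. The day 4.5 range overlapped that of day 2.5 through TNT2 alone, and FOXA3 fell by 2.10 (SE 0.50, adjusted p = 0.000847). At day 7.5 FOXA3 had 0 counts in all 3 WT libraries, against 32 counts at day 4.5. The groups did not overlap, as for 4.72% of all genes in this direction. Set against the floor of 3 counts over the group, it was at least 4.25-fold lower than at day 4.5, and it fell in the test (adjusted p = 0.0374), a call that was lost without TNT2 of day 4.5 (adjusted p = 0.0844) and without any 1 of the day 7.5 libraries (0.137 to 0.162).

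Of all 13797 genes tested, 30.1% passed the test between days 1.5 and 2.5, 34.5% between days 2.5 and 4.5 and 2.70% between days 4.5 and 7.5. Of the 4 tested members, 3, 3 and 1 did. Liver-type genes were read from a list over the same days: of 16 secreted proteins of the hepatocyte programme, 9 were tested and 7 rose between days 2.5 and 4.5 (median log2 fold change 2.29 with genes at 0 counts set to their bound, against 0.03 over all genes), among them TTR, a thyroid hormone carrier, from 0 to 9.22 CPM and APOA1, a lipoprotein, from 3.90 to 48.0 CPM (mean of 6 libraries each). Genes at 0 counts at day 2.5 can pass the filter through later groups alone, which raises this median. Summed over all 16 genes, WT libraries held 6.48 to 14.8 CPM at day 2.5 and 48.1 to 142 CPM at day 4.5. ALB, the main hepatocyte product, had at most 1.94 CPM in any WT library.

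**Figure D1:**
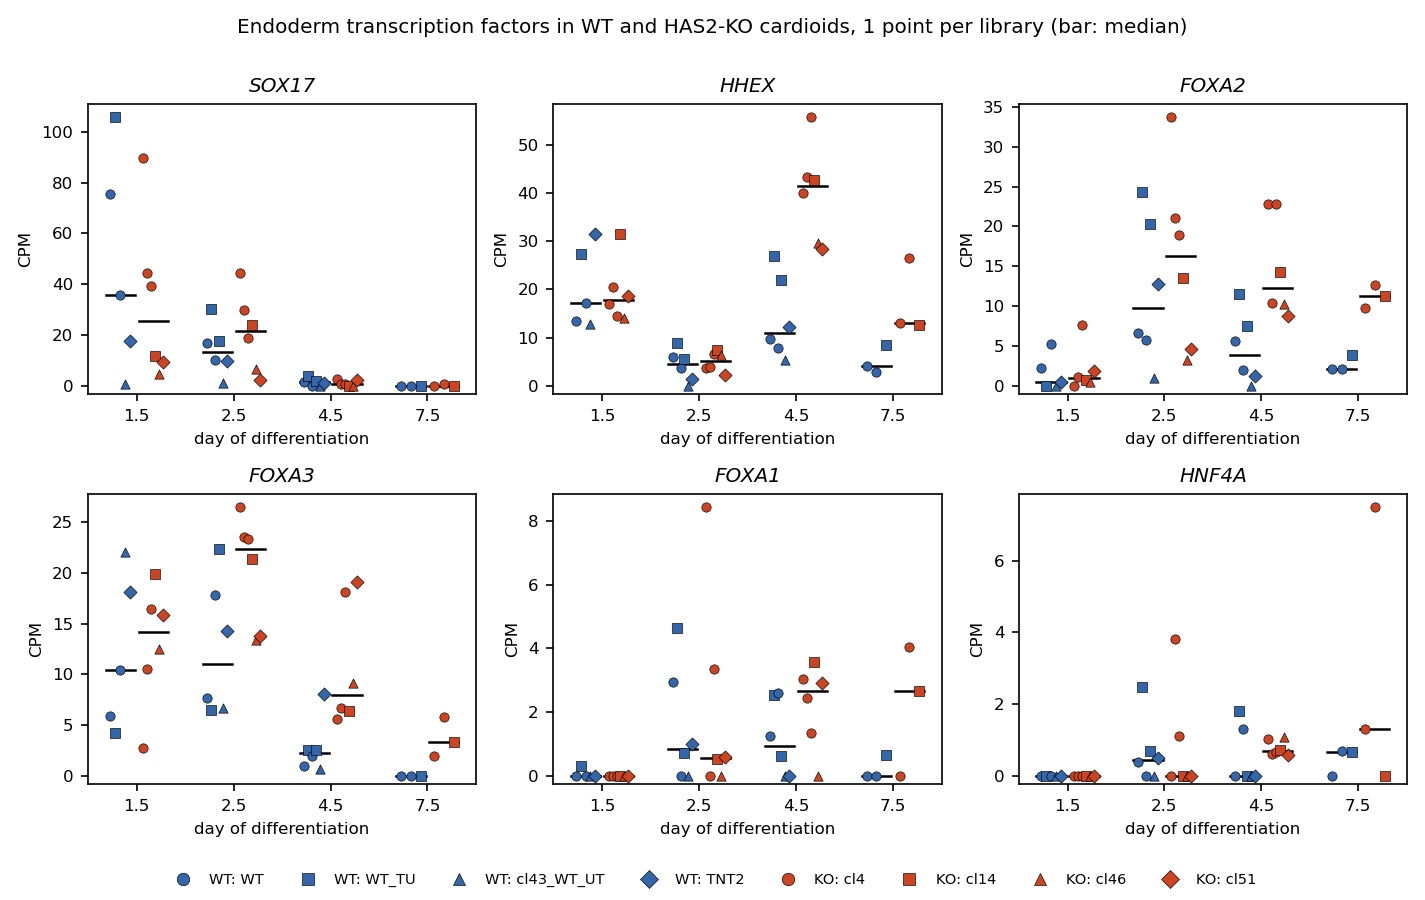
CPM of each member (y axis) by day of differentiation (x axis) in the 41 libraries of the genotype arm, with 1 point per library, WT in blue, KO in red, the marker shape giving the line and the bar the median. At day 4.5 the 6 KO libraries of HHEX lie between 28.4 and 55.7 CPM and the 6 WT libraries between 5.27 and 27.0, whereas the SOX17 points of both genotypes lie close to 0.

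At day 1.5, the day of reseeding as aggregates, no member passed the test between KO and WT. All 4 tested members overlapped between genotypes: SOX17 had 4.49 to 89.6 CPM in KO (median 25.5), HHEX 14.0 to 31.6 (median 17.8), FOXA2 0 to 7.59 (median 0.897) and FOXA3 2.77 to 19.9 (median 14.2). The spread between lines was seen in KO too, with SOX17 highest in cl4_R1 (89.6 CPM) and lowest in cl46_R1 (4.49 CPM). By edgeR's test 0 of the 4 passed (adjusted p from 0.937 to 0.991), as did 0% of all genes. An unadjusted p under 0.05 was found for 0 of the 4, against 4.28% of all genes, and DESeq2 called 0.

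At day 2.5, 1 day after aggregation, 0 of the 4 tested members passed either (adjusted p from 0.594 to 0.909), and DESeq2 called 0. Of all genes, 0.993% passed. An unadjusted p under 0.05 was found for 0 of the 4 members and for 10.5% of all genes. FOXA3 had the smallest p of the 4: it ranged from 13.4 to 26.5 CPM in KO (median 22.4) against 6.48 to 22.3 in WT (median 11.0), a log2 fold change of 0.68 (SE 0.43). FOXA2 had 33.7, 21.0 and 18.9 CPM in the 3 cl4 libraries and 3.19 and 4.59 CPM in cl46 and cl51. The 3 libraries of clone cl4 thus stood above those of cl46 and cl51 in FOXA2, FOXA3 and SOX17, and not in HHEX (KO range 2.30 to 7.31 CPM).

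At day 4.5 HHEX and FOXA3 were higher in KO, FOXA2 had a higher median in KO and did not pass the test, and SOX17 was near 0 in both genotypes. HHEX ranged from 28.4 to 55.7 CPM in KO (median 41.4) and from 5.27 to 27.0 CPM in WT (median 10.9). In CPM every KO library lay above every WT library, by a narrow gap between cl51_R1 (28.4) and the WT library WT_TU_R1 (27.0). With the TMM library scaling that the test uses (factors 1.10 and 0.946), these libraries change places and the groups overlap. The log2 fold change was 1.42 (SE 0.39, 95% interval 0.63 to 2.20, adjusted p = 0.0313). Within block A the KO library had 40.1 CPM against 9.68 and 27.0 in WT, within block B 43.4 against 7.81 and 21.9, and within block C 28.4 to 55.7 (4 libraries) against 5.27 and 12.1. KO was thus above WT in each of the 3 blocks, which follows from the separation of all the libraries in CPM and is no further test.

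FOXA3 at day 4.5 ranged from 5.59 to 19.1 CPM in KO (median 7.94) and from 0.659 to 8.09 CPM in WT (median 2.23). TNT2 alone, with 8.09 CPM, placed a WT library inside the KO range, and the other 5 WT libraries were at 2.52 CPM or less. The log2 fold change was 1.89 (SE 0.50, 95% interval 0.88 to 2.90, adjusted p = 0.0251). KO was above WT within block A (5.59 against 0.937 and 2.52 CPM) and within block B (6.72 against 1.95 and 2.50), and overlapped it within block C, where the WT library TNT2 lies (adjusted p = 0.405 with block C alone).

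FOXA2 at day 4.5 ranged from 8.69 to 22.9 CPM in KO (median 12.3) and from 0 to 11.5 CPM in WT (median 3.79), and the ranges overlapped through the WT_TU library of block A. The log2 fold change was 1.51 (SE 0.67, 95% interval 0.16 to 2.87, adjusted p = 0.207). KO was above WT within each block: 22.9 CPM against 5.62 and 11.5 in A, 10.4 against 1.95 and 7.51 in B, and 8.69 to 22.8 against 0 and 1.16 in C. With the 6 libraries of block C alone (4 KO and 2 WT), an unplanned fit, the log2 fold change was 4.32. FOXA2 passed edgeR's test there (adjusted p = 0.0179), as did 125 of all genes. It was the only 1 of 18 alternatives in which FOXA2 passed. SOX17 had 11 counts over the 6 KO libraries and 21 over the 6 WT libraries (0 to 2.54 and 0 to 3.96 CPM), with an adjusted p of 0.808.

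Of the 4 tested members, 2 passed at day 4.5, where 3.74% of all genes did. Both were higher and 0 were lower, where 1.14% of all genes were higher and 2.60% lower. HHEX was 1 of 4 with groups that did not overlap in unscaled CPM in the higher direction, against 1.25% of all genes. The calls of both members were close to the threshold. That of HHEX was lost without cl14_R1, cl4_R3, TNT2, WT_R1 or WT_R2 (adjusted p from 0.0534 to 0.0917), and that of FOXA3 without cl4_R3, cl51_R1, WT_R1 or WT_TU_R1 (0.0620 to 0.0919), with the direction unchanged in each. In a fit of only the 12 libraries compared FOXA3 lost its call (0.0778) and HHEX kept it (0.0458). An alternative added after the data were seen used 1 value per line or clone (4 against 4), as mean log2 CPM with TMM scaling. The difference was 1.54 for HHEX, where the 4 KO values lay above the 4 WT values. Its two-sided exact permutation p was 0.0286, the smallest that 4 against 4 allows. The same libraries enter these means, so this is no independent test. The difference was 1.59 for FOXA3 (two-sided exact permutation p = 0.0571) and 1.90 for FOXA2 (exact permutation p = 0.0857), both overlapping. After adjustment over 18 such permutation tests the p was 0.514 for HHEX, FOXA3 and FOXA2 alike. A lone member at the smallest possible p cannot come below 0.05 after adjustment over 18 tests, so this adjusted value decides nothing about HHEX.

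**Figure D2:**
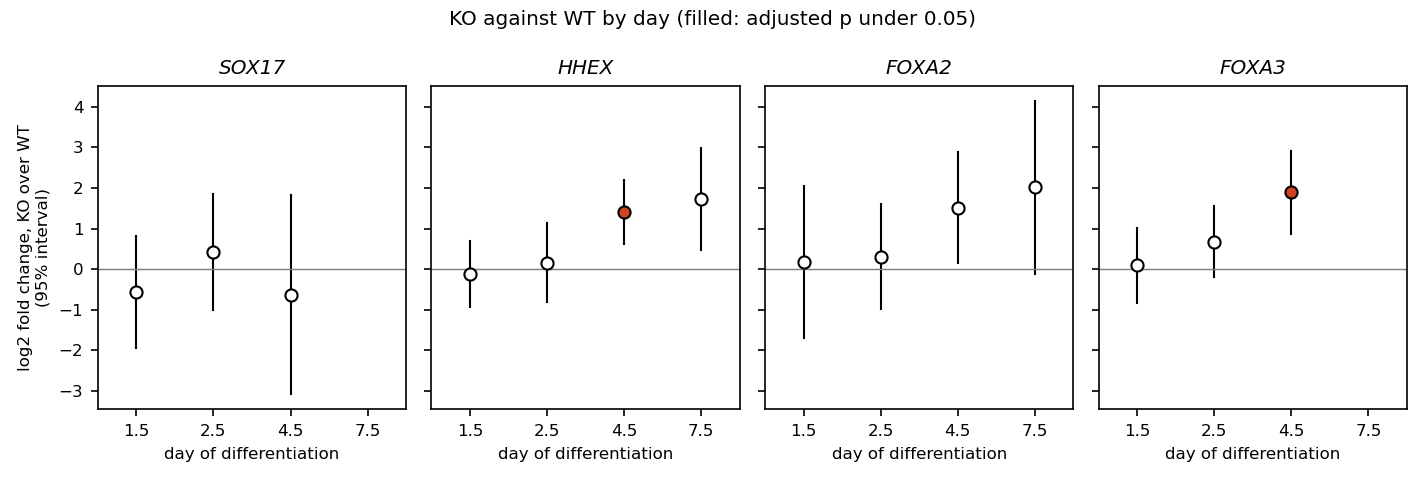
Log2 fold change of KO over WT (y axis, with 95% interval) at each day (x axis) for the 4 tested members, filled where the adjusted p was under 0.05. HHEX and FOXA3 are filled at day 4.5 alone, at 1.42 and 1.89. SOX17 and FOXA3 are not drawn at day 7.5, where WT had 0 counts.

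Other genes of the endoderm path at day 4.5 were read from lists. All 15 genes on a list of partners in the anterior streak and definitive endoderm were tested, and 3 were higher in KO and 0 lower (median log2 fold change 0.91, against −0.03 over all genes): CXCR4, a chemokine receptor used to sort definitive endoderm (3.98 CPM in KO, 0.847 in WT), OTX2, a factor of anterior tissue (50.1 and 17.3 CPM), and LHX1, a factor of the streak and of anterior mesendoderm (160 and 81.9 CPM). Of 14 foregut, liver and gut factors, 6 were tested and 0 passed (median 0.32), and of 16 liver-type secreted proteins, 9 were tested and 0 passed (median 0.59). Among 10 epithelial genes, 8 tested, the adhesion genes CDH1 (8.02 and 1.04 CPM) and EPCAM (27.6 and 7.28 CPM) were higher, and the keratins KRT8 and KRT18 lower. Means are over 6 libraries each. The lists were chosen with earlier results of these data known.

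Markers of other cell types in which HHEX, SOX17 or FOXA2 are known were read beside these differences. Of 14 endothelial genes, 7 were tested and 0 passed at day 4.5, and the summed level of the list overlapped between KO (87.3 to 199 CPM) and WT (63.0 to 260 CPM). CDH5, which defines endothelium, had 3 counts over the 6 KO libraries and 5 over the 6 WT libraries. Of 8 node and notochord genes, 3 were tested, NOG was lower in KO and none was higher, with sums of 14.7 to 28.9 CPM in KO and 17.3 to 60.1 CPM in WT. TBXT, which defines notochord and streak, had 0 counts in all 12 libraries. Of 12 cardiomyocyte genes, 5 were lower and 0 higher in KO (sums 16522 to 42451 CPM against 29487 to 59499), and of 6 pluripotency genes NANOG and ZFP42 were higher, each at 1.25 CPM or less on average. The part of these shifts in the HHEX and FOXA3 differences was not tested.

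At day 7.5, with 3 libraries against 3, 0 of the 4 tested members passed edgeR's test, where 0.348% of all genes did, and 2 (FOXA3 and HHEX) had an unadjusted p under 0.05, as did 5.53% of all genes. HHEX had 13.0 CPM in cl4_R2, 26.5 in cl4_R3 and 12.6 in cl14_R1, against 4.11 in WT_R1, 2.79 in WT_R2 and 8.41 in WT_TU_R2 (log2 fold change 1.73, SE 0.62, adjusted p = 0.477). FOXA2 had 9.76, 12.7 and 11.3 CPM in the same KO libraries, against 2.05, 2.09 and 3.88 (log2 fold change 2.02, SE 1.05, adjusted p = 0.950). FOXA3 had 3, 10 and 5 counts in KO and 0 in each WT library, at least 6.18-fold higher against a floor of 3 counts over the group (adjusted p = 0.0899, and 0.0436 with DESeq2, which called this member alone).

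In all 3 of these members every KO library of day 7.5 lay above every WT library, where 9.11% of all genes did so. The blocks are unevenly filled at that day: WT came from A and B and KO from B and C. Within block B, 1 KO library stood against 2 WT libraries, with 13.0 CPM of HHEX against 2.79 and 8.41, 9.76 CPM of FOXA2 against 2.09 and 3.88, and 1.95 CPM of FOXA3 against 0 and 0. The order within block B follows from the separation of all the libraries and is no further test. SOX17 had 1 count in KO and 0 in WT. Among the 15 streak and endoderm partners LHX1 was higher (104 and 30.5 CPM, log2 fold change 1.74, SE 0.33, adjusted p = 0.00349). The 9 tested liver-type proteins had a median log2 fold change of 1.75, against −0.0041 over all genes. None passed the test, with APOB, the main protein of liver lipoproteins, at 118 CPM in KO and 28.1 in WT (adjusted p = 0.284).

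A change of the KO effect with time was tested as the difference of each later day from day 1.5, with all days in a joint F-test. By edgeR 0 of the 4 members passed (adjusted p = 0.161 for FOXA3, 0.413 for HHEX and 1 for SOX17 and FOXA2), where 0.674% of all genes did. FOXA3 and HHEX, 2 of 4, had an unadjusted p under 0.05, against 7.65% of all genes. DESeq2 called 1, FOXA3 (adjusted p = 0.0349). So did edgeR with blocks A, B and C as a term in the fit (FOXA3, adjusted p = 0.0417). A change of the KO effect with time is therefore not shown for SOX17, FOXA2 or HHEX by any of these fits, and for FOXA3 it depends on the fit.

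FOXA1 and HNF4A stayed near the limit of detection. FOXA1 had 1 count over the 5 WT libraries of day 1.5 and 0 over the 6 KO libraries. At day 2.5 it reached 4.63 CPM in WT (WT_TU_R1) and 8.42 CPM in KO (cl4_R1). Its counts at day 4.5 were 0 to 7 in WT and 0 to 6 in KO, with means of 1.17 and 2.21 CPM (two-sided exact permutation p = 0.173, 0.606 adjusted over its 7 comparisons of the arm). At day 7.5 it had 0, 7 and 4 counts in cl4_R2, cl4_R3 and cl14_R1 and 0, 0 and 1 in WT, where 3 against 3 cannot go below an exact p of 0.1. HNF4A had 0 counts in all 11 libraries of day 1.5. At day 7.5 its KO counts were 2 in cl4_R2, 13 in cl4_R3 and 0 in cl14_R1, so that 1 library held 13 of the 15, against 0, 1 and 1 in WT. No comparison of either gene in this arm reached p = 0.05 by the exact permutation test.

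In the enzyme arm 0 of the 4 tested members passed in any of the 7 comparisons, 0 had an unadjusted p under 0.05 in each, and DESeq2 called 0 in each. Fitted with the line as a block, since replicate numbers stand for the same 3 lines, edgeR called 0 in each as well. The share of all genes that passed was 1.15%, 3.48% and 3.33% for HAse1.5 against untreated at days 2.5, 4.5 and 7.5, and 0.220% and 0.659% for HAse2.5 at days 4.5 and 7.5. HAse1.5 against HAse2.5 gave 0.361% at day 4.5 and 0.00784% at day 7.5. An unadjusted p under 0.05 was found for 9.22%, 13.8% and 16.8% of all genes with HAse1.5, 7.02% and 13.5% with HAse2.5, and 9.65% and 5.64% between the enzyme starts. HAse1.5 and HAse2.5 were compared with the same untreated libraries.

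FOXA2, FOXA3 and HHEX were highest in line TNNI1 at days 2.5 and 4.5, with and without enzyme. FOXA3 was highest in TNNI1 at day 7.5 too (1.78 CPM untreated, 6.52 with HAse1.5 and 2.77 with HAse2.5). FOXA2 at day 2.5 had 25.0 CPM in line TNNI1, 0.894 in line WT and 6.17 in line TNNT2 when untreated, and 28.1, 0.799 and 6.25 CPM with HAse1.5. At day 4.5 it had 17.7, 5.33 and 1.39 CPM untreated, 16.1, 0.864 and 14.0 with HAse1.5, and 7.91, 3.90 and 0.641 with HAse2.5. TNNI1 was highest in each of these 5 groups, and with HAse1.5 at day 4.5 TNNT2 lay close to it. At day 7.5 FOXA2 had 6 counts over the 3 untreated libraries, 1 with HAse1.5 and 0 with HAse2.5.

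HHEX at day 2.5 had 4.60 CPM in TNNI1, 0.894 in WT and 2.24 in TNNT2 when untreated, and 11.0, 0.799 and 3.75 with HAse1.5. At day 4.5 it had 23.2 CPM in TNNI1, 10.7 in WT and 6.26 in TNNT2 when untreated, 24.2, 2.59 and 11.1 with HAse1.5, and 22.3, 9.37 and 7.05 with HAse2.5. TNNI1 was highest in all 5 groups, and the adjusted p at day 4.5 was 0.971 for HAse1.5 and 1.00 for HAse2.5. At day 7.5 TNNI1 had 19.6 CPM untreated, 7.34 with HAse1.5 and 2.77 with HAse2.5, while WT had 8.93, 9.35 and 10.1 and TNNT2 had 5.93, 11.2 and 4.58.

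SOX17 and FOXA3 had higher CPM than untreated in all 3 lines at day 4.5 with either enzyme start, by amounts that did not pass the test. FOXA2 was lower in all 3 lines with HAse2.5 at that day. The share of all genes that moved the same way in all 3 lines was not computed. SOX17 had 0.682, 0 and 1.39 CPM in TNNI1, WT and TNNT2 untreated, 8.07, 0.864 and 2.91 with HAse1.5, and 2.88, 0.781 and 1.92 with HAse2.5. These are 3, 19 and 8 counts over the 3 libraries (log2 fold change 2.26 for HAse1.5, SE 1.24, adjusted p = 0.462). FOXA3 had 5.46, 1.78 and 2.09 CPM untreated, 21.1, 2.59 and 4.66 with HAse1.5, and 6.47, 4.68 and 2.56 with HAse2.5 (log2 fold change 1.49 for HAse1.5, SE 0.78, adjusted p = 0.422). TNNI1 supplied 13 of the 19 SOX17 counts and 34 of the 45 FOXA3 counts with HAse1.5. Without that TNNI1 library the log2 fold change was 1.27 for SOX17 and 0.14 for FOXA3. The summed level of the 14 endothelial genes was also higher at this day, with 156 to 216 CPM untreated, 246 to 283 with HAse1.5 and 291 to 362 with HAse2.5. Of the 9 endothelial genes tested, 1 passed with HAse1.5 (LMO2) and 0 with HAse2.5, and CDH5 had 6, 4 and 21 counts over the 3 libraries of each group. Their part in the SOX17 values was not tested. At day 2.5 FOXA3 had 21.4, 8.05 and 12.9 CPM untreated and 23.3, 20.8 and 15.6 with HAse1.5 (adjusted p = 0.972), and at day 7.5 no library of the arm had more than 3.93 CPM of SOX17 or 6.52 CPM of FOXA3.

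HAS2 and hyaluronidase both act on hyaluronan, so a joint fit of the 65 libraries tested the KO difference minus the HAse1.5 difference. By edgeR 0 of the 4 tested members passed at day 2.5, 4.5 or 7.5, where 0.0925%, 0.271% and 0.0925% of all genes did, and DESeq2 called 0 at each day. An unadjusted p under 0.05 was found for 0, 1 and 2 of the 4 members, against 4.95%, 6.67% and 7.37% of all genes. The 1 at day 4.5 was HHEX, whose KO difference exceeded its HAse1.5 difference by 1.59 (SE 0.77, 95% interval 0.06 to 3.13, adjusted p = 0.733). The 2 at day 7.5 were FOXA3 and HHEX, HHEX with a difference of 2.11 (SE 0.95, adjusted p = 0.624).

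HNF4A at day 7.5 was the member whose 2 enzyme groups both lay apart from untreated, on few counts. It had 5, 2 and 1 counts in TNNI1, WT and TNNT2 untreated, 0, 0 and 1 with HAse1.5, and 0 in all 3 with HAse2.5. In CPM both enzyme groups lay below every untreated library, though TNNT2 had 1 count both untreated and with HAse1.5 (two-sided exact permutation p = 0.1 each, the smallest that 3 against 3 allows, 0.35 after adjustment over 7 comparisons). Among tested genes, 6.90% and 7.37% lay apart in this direction. With HAse2.5 HNF4A was at least 2.95-fold lower than untreated, against a floor of 3 counts over the group. FOXA1 had 0 counts in the 3 untreated libraries at day 4.5, 7, 0 and 6 with HAse1.5 and 5, 0 and 0 with HAse2.5 (exact permutation p = 0.4 and 1).

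**Figure D3:**
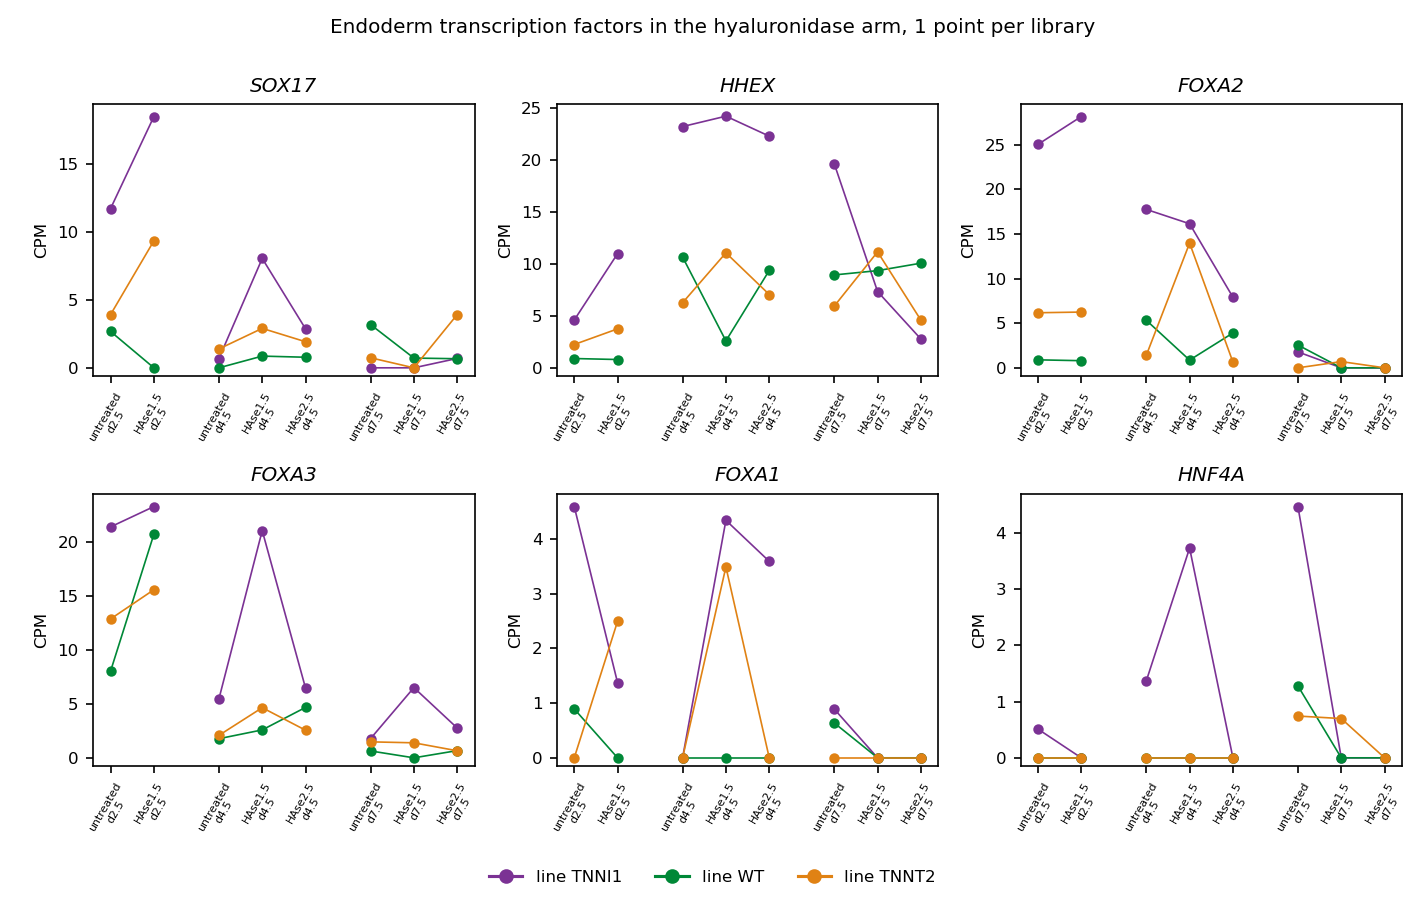
CPM of each member (y axis) in the 24 libraries of the enzyme arm, by treatment and day (x axis), with lines joining the libraries of 1 cell line within a day. FOXA2, FOXA3 and HHEX are highest in line TNNI1 in all 5 groups of days 2.5 and 4.5, where FOXA2 of TNNI1 lies between 7.91 and 28.1 CPM. HNF4A of untreated day 7.5 lies above both enzyme groups.

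Of 16 liver-type proteins, 5 were tested in this arm, and 3 of these were lower with each enzyme start at day 7.5. AFP, a fetal liver protein, was lower with HAse1.5 (0 CPM, against 37.3 untreated, mean of 3 libraries) and with HAse2.5 (0.218 CPM), as were APOB (4.03 and 1.12 CPM against 93.4) and FGB, a fibrinogen chain (0.697 and 0 CPM against 22.5). The median log2 fold change of the 5 tested genes was −4.62 for HAse1.5 and −4.95 for HAse2.5 with genes at 0 counts set to their bound, against 0.02 and −0.0076 over all genes. Genes near 0 with enzyme can pass the filter on low counts through untreated libraries alone, which draws this median down. Summed over all 16 genes, untreated libraries held 135 to 658 CPM (median 212), so 1 library weighs on the untreated means. The sums were 44.6 to 92.7 CPM with HAse1.5 and 46.3 to 89.3 with HAse2.5. Among the streak and endoderm partners LHX1 was higher with HAse1.5 at day 4.5 (905 against 94.4 CPM) and day 7.5 (327 against 17.9 CPM). Of 12 cardiomyocyte genes, 8 were lower with HAse1.5 at day 4.5 and 4 at day 7.5, and the endothelial gene LMO2 was higher at both days. Their part in the HNF4A counts was not tested.

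Ordered by mean CPM within the genotype arm, HHEX was highest in KO at day 4.5 (40.0 ± 10.1 CPM, SD, n = 6), followed by WT at day 1.5 (20.5 ± 8.50, n = 5), and lowest in WT at day 2.5 (4.24 ± 3.25, n = 6). SOX17 was highest in WT at day 1.5 (47.0 ± 43.0, n = 5), FOXA2 in KO at day 2.5 (15.8 ± 11.4, n = 6) and FOXA3 in KO at day 2.5 (20.3 ± 5.47, n = 6). Neighbours in these orders had overlapping ranges for every member in both arms, with 1 exception: FOXA3 in WT at day 4.5 (2.78 ± 2.72, n = 6) did not overlap the 0 counts of WT at day 7.5.

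**Figure D4:**
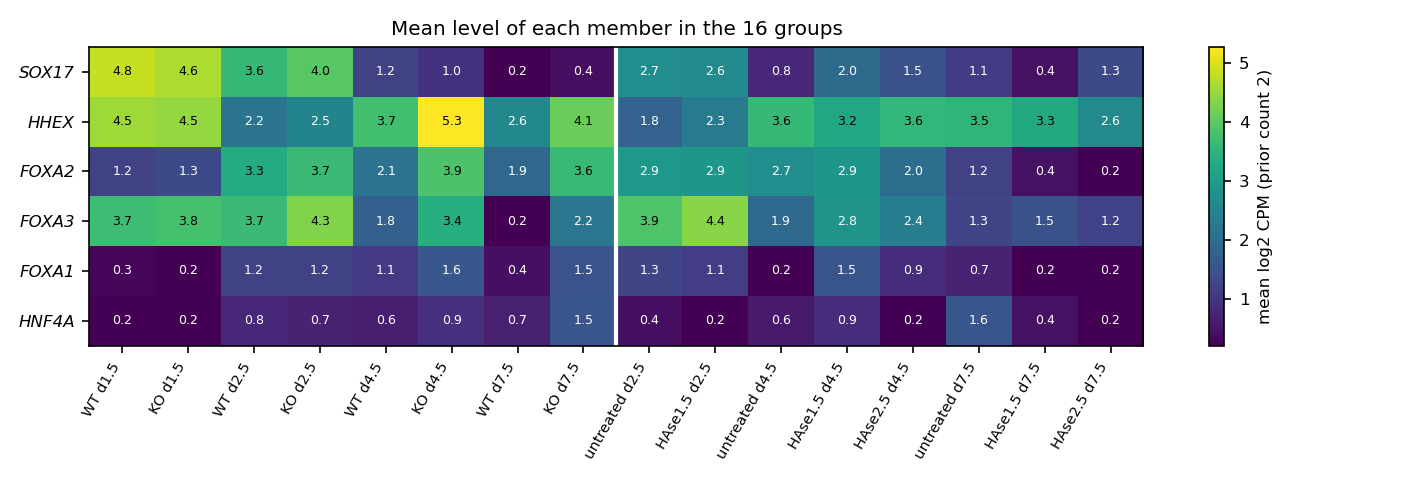
Mean log2 CPM (prior count 2, TMM scaling) of the 6 members (rows) in the 16 groups (columns), the genotype arm left and the enzyme arm right of the white line. In the HHEX row the highest cell is KO at day 4.5, and in the SOX17 row the day 1.5 cells are the highest.

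Members varied together within groups to different degrees. With each group's mean subtracted, log2 CPM of FOXA2 and HHEX had a Pearson r of 0.64 over the 65 libraries (Spearman rho 0.57, and r 0.57 without the 2 libraries farthest from the HHEX median). HHEX was the second likest gene to FOXA2, after NUDT4 (r 0.64), and FOXA2 the second likest to HHEX, after ENSG00000249631 (r 0.68). In the 24 enzyme libraries alone FOXA2 and HHEX were each other's likest gene of all (r 0.88, rho 0.87, and r 0.84 without the 2 farthest libraries). In the 41 genotype libraries the pair had an r of 0.45 (rho 0.35, and r 0.27 without the 2 farthest), and neither was among the other's 3 likest genes. FOXA3 and SOX17 had an r of −0.11 over the 65 libraries. The genes likest to FOXA3 were PCAT14 (r 0.73), CNTNAP2 (0.68) and LINC02754 (0.67), and those likest to SOX17 were CD164 (0.72), ID1 (0.71) and KREMEN2 (0.71). For FOXA1 they were SCGB1A1 (0.59), MRPL17 (0.57) and RAB25 (0.56), and for HNF4A POLRMT (0.54), PCOLCE2 (0.52) and POLE3 (0.50), all on few counts. ALDH1B1 was the third for HHEX (0.62) and ENSG00000249631 for FOXA2 (0.58). The libraries share lines, blocks and depth, so these values describe the samples.

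With group means kept, so that differences between days and treatments enter, SOX17 was likest to CHGA (r 0.88), RACK1 (0.87) and MIR302CHG (0.87), FOXA3 to PCAT14 (0.90), CNTNAP2 (0.87) and EPB41L2 (0.85), HHEX to the foregut and liver factor ONECUT2 (0.75), UBE2G2 (0.62) and MAL2 (0.60), and FOXA2 to RIPPLY3 (0.70), DLK1 (0.66) and FZD5 (0.64). HNF4A was likest to ITIH2, A1CF and APOB (each 0.54), genes of the hepatocyte programme, but without the 2 libraries farthest from its median the values were 0.20, 0.26 and 0.38. FOXA1 was likest to FOXA2 (0.66). Libraries fall into days here, and these pooled values are a description of that order.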

How the data were processed

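RNA was measured by 3′ RNA-seq (QuantSeq FWD, single-end) in 65 libraries. Per the submitters' processing notes, reads were counted per gene with featureCounts (Subread 1.6.2) on GRCh38, and the deposited table holds these raw counts for 58735 gene IDs, of which 58207 matched a symbol. The aligner, strand setting, treatment of reads that match several genes and any use of molecular identifiers are not given in the sources used here. The kit reads transcript ends, so a level is not a measure of whole transcripts. Another 4 count columns belong to no listed sample and were not used.

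Counts were tested with edgeR 4.0.16 (R 4.3.3): filterByExpr (minimum count 10), TMM scaling, a robust quasi-likelihood fit of all libraries of an arm, and two-sided F-tests adjusted by Benjamini-Hochberg over every tested gene (threshold 0.05). All groups of an arm share 1 estimate of spread. Log2 CPM used a prior count of 2. FOXA1 and HNF4A were compared by exact permutation tests of CPM. Floors are 3 counts over a group and, like intervals on reads, cover counting error only. Members, the 8 marker lists (94 genes), tests and alternatives were chosen with earlier results of these data known. Likest genes are the 3 with the highest Pearson r to a member. On simulated counts for KO against WT at day 4.5 (13174 genes), the test recovered 86 of 98 genes changed 4-fold and 42 of 98 changed 2-fold, with 7 false calls. The simulated libraries were independent, without shared lines, clones or blocks, so these rates may not hold for the data. In 115 pairs of replicates chi-square divided by its degrees of freedom ran from 2.07 to 71.8, above sampling noise, so none was treated as a library deposited more than once.

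Replicate numbers of the enzyme arm stand for the same 3 lines, so the numbers pair its samples. Within a day, 15 of 21 same-line pairs had a residual correlation above 0.1 (lowest −0.10). Alternatives were DESeq2 1.42.0, its size factors, no filter on low counts, only the libraries compared, a block term, block C alone, and leaving out each library. The block term was the library block (A, B or C) in the genotype arm and the line in the enzyme arm.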

Additional observations from a re-analysis of the deposited data

How the results depend on the processing

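Of 762 values of the members under alternatives, 689 kept their direction and side of the threshold, 23 lost and 2 gained a call, and 48 reversed, none of them a called value. At KO against WT on day 4.5 the count of members called was 2, and 1 with only the libraries compared (FOXA3 lost, adjusted p = 0.0778). Leaving out 1 library gave 0 to 2: 0 without cl4_R3 or WT_R1. At day 7.5 DESeq2 called 1 (FOXA3). For the WT step from day 4.5 to 7.5 the count of 1 became 0 with only the libraries compared, where FOXA3 was below the filter and not tested, and ranged from 0 to 1 when 1 library was left out. For the KO effect over the days, 0 by edgeR, DESeq2 called 1 and the fit with the block term called 1 (FOXA3 in both). SOX17 at KO against WT on day 4.5, −0.63 and not called, was 0.10 with the block term. It ranged from −1.16 to 0.0063 when 1 library was left out, on 32 counts in 12 libraries. The cause was not tested. In the WT steps between days 1.5, 2.5 and 4.5, the 5 calls other than that of SOX17 between days 1.5 and 2.5 held in every alternative run.

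Genotype libraries share R numbers without a stated pairing, and 9 of 32 same-number pairs had a residual correlation above 0.1. All 9 were pairs within block A or within block B (highest 0.79, block A at day 1.5). The lowest, −0.41, was between a library of block A and one of block C. With blocks A, B and C as a term in the fit, 829 of all genes were called at KO against WT on day 4.5. Without that term 516 were called, and 254 with no filter on low counts. In the enzyme arm the line block changed no call of a member, while the count of all genes rose from 443 to 585 for HAse1.5 at day 4.5 and from 28 to 55 for HAse2.5. FOXA1 and HNF4A had too few counts for the test in either arm, and whether greater depth would change that was not tested.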

Other observations

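The 24 combinations of a tested member and a group of 4 to 10 libraries were examined for a wide gap beside the lowest or highest library. In none did the gap, as a share of the range of log2 CPM, pass the cutoff. Groups of this size give such a cutoff little power. A library can stand apart without passing it, as TNT2 did in FOXA3 of WT at day 4.5 (8.09 CPM, group median 2.23).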
